A study of Mus musculus with 8 samples.

Results

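A pair of diet models of nonalcoholic steatohepatitis (NASH) was compared across all cells of the liver. In the WD+F+CCl4 model 3 mice ate a western diet, in the HFD+F+CCl4 model 3 mice ate a high-fat diet, and all 6 also had fructose solution and injections of carbon tetrachloride. A barcode was taken if it held over 500 genes and less than 25% of its UMIs were mitochondrial, without restriction to any cell type, and their UMIs (unique molecular identifiers, 1 for each captured transcript molecule) were summed per mouse, so that the mouse was the replicate. This gave 65518 cells of the 80474 that passed the same limits in the whole series, 33562 from the WD+F+CCl4 mice and 31956 from the HFD+F+CCl4 mice. The mice were wild-type C57BL/6 animals, and both models shared the fructose solution and the intraperitoneal carbon tetrachloride, a hepatotoxin that drives fibrosis, so that of the treatments the labels name only the chow differed. Per the study's methods the western diet held far more cholesterol than the high-fat diet, and the diets also differed somewhat in fat and carbohydrate. The 2 control mice had normal diet and drinking water. Age and sex were not given in the sources used here.

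Cells hold their cholesterol within narrow limits through a pair of transcription programs. When sterols are scarce, SREBP2 is released from the endoplasmic reticulum and induces the enzymes of sterol synthesis and genes of sterol uptake; when sterols are plentiful, SREBP2 is retained and oxysterols activate the liver X receptors (LXR), which induce cholesterol efflux pumps. Liver macrophages, endothelial cells, stellate cells and lymphocytes all use both programs, and in NASH monocytes recruited from blood, interferon signalling and collagen made by activated stellate cells are known features of the tissue.

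The libraries held mostly immune cells. Clustering gave classes that were named by their markers, and the monocyte, macrophage and dendritic cell-like class made up 50.3 to 65.5% of the cells of a WD+F+CCl4 mouse and 60.6 to 68.6% of an HFD+F+CCl4 mouse. Hepatocyte-like cells, the main cell of the liver, were 0.300 to 2.91% of a library. Each mouse gave 9846 to 11999 kept cells and 45765722 to 63878061 UMIs, with medians of 3908 to 4278 UMIs per cell in WD+F+CCl4 and 3159 to 3853.5 in HFD+F+CCl4. HFD+F+CCl4 replicate 1 and WD+F+CCl4 replicate 3 held 13.2 and 12.2% endothelial-like cells against at most 2.01% in the other NASH mice, and values without both of these endothelial-rich libraries are given below where they bear on a result. The first principal component (62.2% of the variance) did not follow the diets: it placed these libraries highest, at 110.9 and 66.2, and WD+F+CCl4 replicate 1 at the other end, at -104.7. Pairs of NASH libraries shared at most 0.432% of their cell barcodes.

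With edgeR's quasi-likelihood test and Benjamini-Hochberg adjustment, 0 of 19787 genes differed between the diet models at an adjusted p of 0.05 over all kept cells (0% called). At an unadjusted p under 0.05 there were 767 genes, 254 higher and 513 lower in WD+F+CCl4 (3.88%, 1.28% and 2.59% of genes tested), and DESeq2, run as an alternative, called 47 (0.238%), 12 higher and 35 lower. What follows is therefore a description of levels. The gene lists and their members were chosen with earlier results of these data known. A list's share beside that of all genes is thus also a description and not independent support. For each gene the level is given as CPM, the UMI count scaled by edgeR to a common library size with TMM factors. The difference is the fitted log2 fold change of WD+F+CCl4 over HFD+F+CCl4 with a standard error (SE). This SE was derived as the absolute log2 fold change divided by the square root of the quasi-likelihood F statistic. A gene is called separated when all 3 WD+F+CCl4 mice lay on the same side of all 3 HFD+F+CCl4 mice. Of all genes tested, 4.4% were separated with WD+F+CCl4 higher and 4.49% with it lower, 8.88% in either direction, and the median log2 fold change of all genes was -0.02. Each p-value sets a difference against the spread between mice of the same group. Over all kept cells that spread came from all 8 mice, controls included. Within a class it came from the 6 NASH mice. In sums over all cells, fewer cells of a type and less RNA per cell cannot be told apart.

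Genes of cholesterol synthesis were lower under the western diet. Of 26 sterol synthesis and SREBP2 target genes, 25 had a log2 fold change below 0 (52.5% of all genes did), with a median of -0.57. Of the 26, 11 (42.3%, against 4.49% of all genes) were separated with WD+F+CCl4 lower. Among them were Hmgcs1, Idi1, Fdft1, Sqle, Lss, Cyp51, Msmo1, Hsd17b7 and Sc5d. These act at early, middle and late steps of the pathway to cholesterol. Only Ebp, a sterol isomerase of the same route, was separated in the other direction (log2 fold change 0.29 ± 0.13, SE). The summed level of the 26 genes was 407, 444 and 419 CPM in the WD+F+CCl4 mice, 538, 488 and 696 CPM in the HFD+F+CCl4 mice and 885 and 918 CPM in the controls. In these sums both NASH models thus lay below the controls, and the western diet mice lay lowest. The control libraries differed in depth and make-up. Control replicate 2 had a median of 992.5 UMIs per cell, and hepatocyte genes summed to 6382 and 6937 CPM in the controls against at most 2653 CPM in a NASH mouse. The part of this in the distance to the controls was not tested.

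The promoters of 3 of these genes are shown because sterol-regulated genes share short elements near their start: the sterol regulatory element (searched as TCACNCCAC), bound by SREBP, the CCAAT box (searched as CCAAT), bound by NF-Y, which works with it, and the E-box (searched as CACGTG). Each stretch is 150 bases from RefSeq on GRCm38.p6, 5′ to 3′ on the gene's own strand, ends before the first transcribed base of either gene model, RefSeq or GENCODE, and has matches on either strand in capitals.
Hmgcs1, chr13:119690201-119690350, plus strand: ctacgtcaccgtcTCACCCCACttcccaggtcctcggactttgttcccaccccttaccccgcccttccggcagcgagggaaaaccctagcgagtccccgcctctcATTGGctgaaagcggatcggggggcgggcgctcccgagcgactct
Lss, chr10:76531438-76531587, plus strand: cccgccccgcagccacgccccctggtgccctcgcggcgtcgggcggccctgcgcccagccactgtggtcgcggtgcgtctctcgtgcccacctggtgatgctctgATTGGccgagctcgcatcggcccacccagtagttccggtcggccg
Hsd17b7, chr1:169969242-169969391, minus strand: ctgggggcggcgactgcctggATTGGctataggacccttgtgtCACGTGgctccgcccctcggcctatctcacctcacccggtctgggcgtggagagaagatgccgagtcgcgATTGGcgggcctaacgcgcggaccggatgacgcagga
In the 250 bases before the RefSeq start, 17 of the 18 listed genes with a promoter in the table (94.4%) held a CCAAT box, against 37.5% of all 27025 promoters, 4 (22.2%) held the E-box, against 6.86%, and 1 (5.56%), Hmgcs1, held the sterol element in this spelling, against 1.23%. These matches describe the letters of the window and are not evidence of binding.

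The enzymes differed in size of difference along the pathway. Hmgcs1 (HMG-CoA synthase) stood at 25.1, 27.8 and 23.9 CPM in WD+F+CCl4 and 35.9, 31.9 and 43.4 CPM in HFD+F+CCl4 (log2 fold change -0.53 ± 0.14, SE). Its levels were close among the western diet mice, and no HFD+F+CCl4 mouse reached down to them. Idi1, which isomerises the isoprenoid building block (chr13:8885501-8892451, plus strand), was at 5.54, 6.67 and 6.01 CPM in WD+F+CCl4 and 11.9, 11.7 and 18.1 CPM in HFD+F+CCl4 (-1.19 ± 0.23, unadjusted p = 0.000899, edgeR). Sqle, the squalene epoxidase (chr15:59315077-59331192, plus strand), was at 1.98, 3.21 and 3.62 CPM against 7.82, 5.81 and 13.1 CPM (-1.60 ± 0.36, unadjusted p = 0.00236, edgeR). DESeq2 called both, with adjusted p-values of 0.00995 for Idi1 and 0.0188 for Sqle, while edgeR's adjusted p was 0.0896 or more for every gene under each alternative that kept all kinds of cells. Cyp51, the lanosterol demethylase, was at 7.17, 11.9 and 9.73 CPM in WD+F+CCl4 and 15.1, 15.4 and 32.2 CPM in HFD+F+CCl4 (-1.12 ± 0.33, and -0.67 without HFD+F+CCl4 replicate 3). Other separated enzymes had log2 fold changes of -0.99 (Hsd17b7), -0.70 (Msmo1), -0.61 (Fdft1), -0.60 (Lss) and -0.49 (Sc5d). Insig1, which retains SREBP, overlapped at 10.6, 13.8 and 15.4 CPM against 24.4, 14.6 and 20.4 CPM, since HFD+F+CCl4 replicate 2 fell inside the western diet range. Without both endothelial-rich libraries, the list's median was -0.55.

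**Figure D1:**
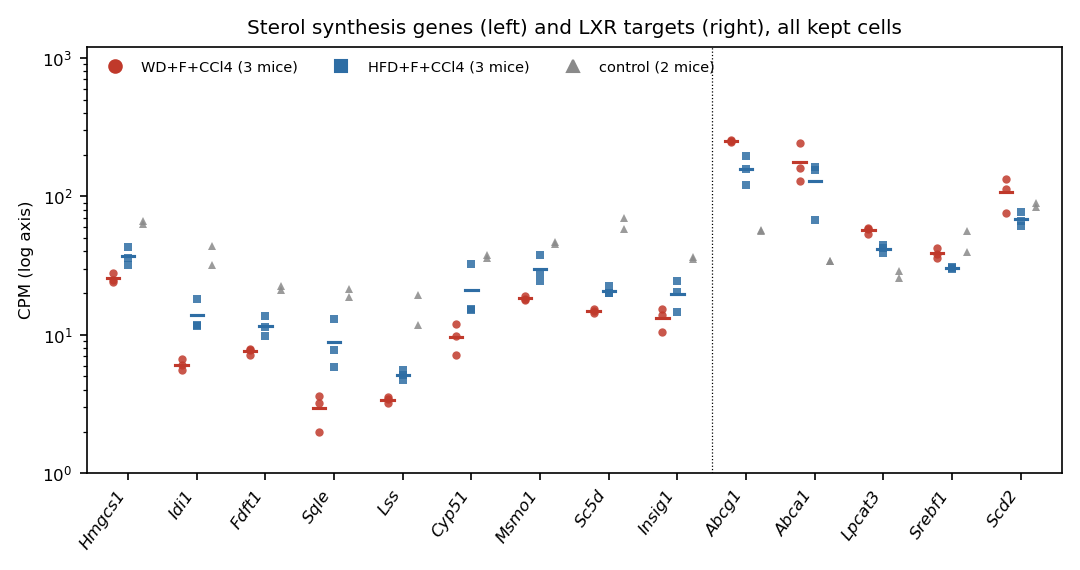
Level of 9 sterol genes and 5 LXR target genes in each mouse, as CPM on a log axis; circles are WD+F+CCl4 mice, squares HFD+F+CCl4 mice, triangles controls, and bars the group means. For 8 of the 9 sterol genes every circle lies below every square; Insig1 overlaps, and Abcg1, Lpcat3 and Srebf1 have every circle above every square.

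The lower sterol genes were seen in the sums of several cell classes, which were not corrected for free RNA. In the monocyte, macrophage and dendritic cell-like class (6030 to 7493 cells per mouse), where 6.52% of 15621 genes were separated in each direction, edgeR called 0 genes (1117 at an unadjusted p under 0.05, 7.15%, of which 2.96% of all genes were higher and 4.19% lower, and 139 by DESeq2, 0.89%). There 24 of 25 sterol genes had a log2 fold change below 0, as 50.8% of all genes did, and 14 were separated with WD+F+CCl4 lower, with a median log2 fold change of -0.66. In this class Sqle was at 1.05, 2.26 and 1.88 CPM against 7.13, 3.94 and 11.96 CPM (-2.15, DESeq2 adjusted p = 0.00385) and Idi1 at 3.57, 5.16 and 4.79 CPM against 11.3, 9.11 and 17.4 CPM (-1.49, DESeq2 adjusted p = 0.00194). In T and NK-like cells, with 4.7% of 12476 genes separated higher and 5.59% lower, 21 of 25 sterol genes were below 0 (50.3% of all genes) and 6 were separated lower (median -0.35), among them Hmgcs1, Idi1 and Sqle. In granulocyte-like cells, with 5.63% of 9831 genes separated higher and 4.33% lower, 18 of 19 were below 0 (49.6% of all genes) and 8 were separated lower (median -0.67), among them Cyp51 at 4.73, 2.63 and 3.53 CPM against 8.56, 12.4 and 13.02 CPM (-1.57 ± 0.35, SE). In B-like cells, with 7.33% of 8811 genes separated higher and 5.87% lower, 10 of 14 were below 0 (50.2% of all genes) and 2 were separated lower, among them Insig1 (median -0.29). edgeR called 0 genes in each of these 3 classes, with 586, 473 and 619 at an unadjusted p under 0.05 (4.7%, 4.81% and 7.03%; higher 2.11%, 1.98% and 3.05%, lower 2.59%, 2.83% and 3.97%) and 19, 14 and 13 by DESeq2 (0.152%, 0.142% and 0.148%) for T and NK, granulocyte and B-like cells. Summed over the list, all 3 WD+F+CCl4 mice lay below all 3 HFD+F+CCl4 mice in every one of the 4 classes. In B-like cells the sums came close, at 308.7, 308.5 and 292.8 against 371.4, 326.5 and 423.6 CPM, and HFD+F+CCl4 replicate 3 had only 33 such cells. The clusters inside the myeloid class were filled unequally by the mice: a cluster led by heat shock and immediate early genes (Hspa1b, Fosb, Fos) held 2688 cells from HFD+F+CCl4 replicate 1 and 260 from WD+F+CCl4 replicate 3, but no more than 40 from any other NASH mouse, a cluster led by Pf4, Gpnmb and Ms4a7 held 29.2% of the cells of HFD+F+CCl4 replicate 1 and 7.82% of those of replicate 3, and a cluster led by Vcan, Chil3 and Fn1 held 10.0 to 20.3% of WD+F+CCl4 and 3.20 to 6.76% of HFD+F+CCl4 cells. The part of these in the values of the class was not tested.

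**Figure D2:**
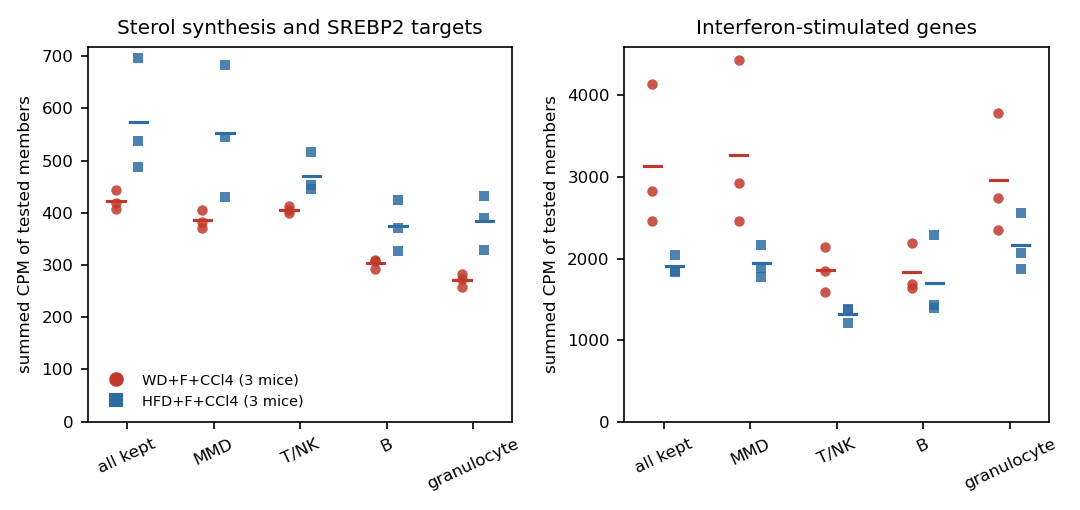
Summed level (CPM) of the sterol synthesis and SREBP2 target genes and of the interferon-stimulated genes in each NASH mouse, over all kept cells and within 4 cell classes; circles are WD+F+CCl4 and squares HFD+F+CCl4. The sterol sum separates the diets in all 5 sets, and the interferon sum in all kept cells, the myeloid class and T and NK-like cells, but not in B-like or granulocyte-like cells.

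LXR targets mostly had fold changes in the other direction, by less. Of 22 LXR target and cholesterol efflux genes, 17 had a log2 fold change above 0, as 9406 of all 19787 genes did. The list's median was 0.25 (0.063 without HFD+F+CCl4 replicate 3). Separated with WD+F+CCl4 higher were 4 (18.2%), Abcg1, Lpcat3, Smpdl3a and Srebf1, and 0 with it lower. Of all genes, 4.4% were separated higher and 4.49% lower. Abcg1, the pump that hands cholesterol to HDL (chr17:31057675-31117988, plus strand), was at 257, 245.3 and 250.1 CPM in WD+F+CCl4, 158.4, 196.2 and 121.8 CPM in HFD+F+CCl4 and 55.8 and 57.3 CPM in the controls (0.66 ± 0.18, SE). It was separated the same way in each class fitted: 285.7, 265.7 and 296.6 against 186.9, 227.7 and 133.7 CPM in the myeloid class, 130, 141.3 and 132.6 against 91.6, 91.9 and 71.9 CPM in T and NK-like cells, and 259.2, 257 and 265.8 against 179.8, 187.9 and 116.2 CPM in granulocyte-like cells. Both NASH diets were above the controls for this gene, with the western diet highest. The myeloid class supplied 73.5% of its UMIs in WD+F+CCl4 and 78.5% in HFD+F+CCl4. Lipid-associated macrophage genes summed to 3855 and 3931.5 CPM in the controls, against at least 20014 CPM in a NASH mouse. The part of this make-up in the distance of Abcg1 to the controls was not tested. Lpcat3, which places polyunsaturated fatty acids into membrane phospholipids, was at 53.3, 58.0 and 59.1 CPM against 42.2, 44.6 and 38.9 CPM (0.44 ± 0.11, DESeq2 adjusted p = 0.0496). Srebf1, the fatty acid synthesis regulator, was at 36.02, 42.2 and 38.2 CPM against 30.9, 29.9 and 30.3 CPM, and Smpdl3a, a phosphodiesterase induced by LXR, had a log2 fold change of 0.39. Abca1, the other main efflux pump, overlapped over all cells (128.5, 161.2 and 243.5 against 163.4, 154 and 67.9 CPM) but was separated higher in granulocyte-like cells (125, 147.8 and 149.2 against 105.9, 81.7 and 54.5 CPM). Scd2, a fatty acid desaturase, overlapped over all cells and was separated in T and NK-like cells, at 60.2, 81.3 and 102.1 against 42.9, 43.6 and 38.2 CPM (0.97, DESeq2 adjusted p = 0.0447). Apoe, which carries most of the list's UMIs, overlapped (11030, 11120 and 16110 against 22850, 18450 and 7473 CPM), and so did the list's summed level. Within the classes the medians were closer to 0, at 0.20 in the myeloid class, 0.14 in T and NK-like, 0.05 in B-like and -0.003 in granulocyte-like cells, and leaving out 1 mouse moved them between 0.090 and 0.32, 0.047 and 0.33, -0.015 and 0.22, and -0.021 and 0.16.

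**Figure D3:**
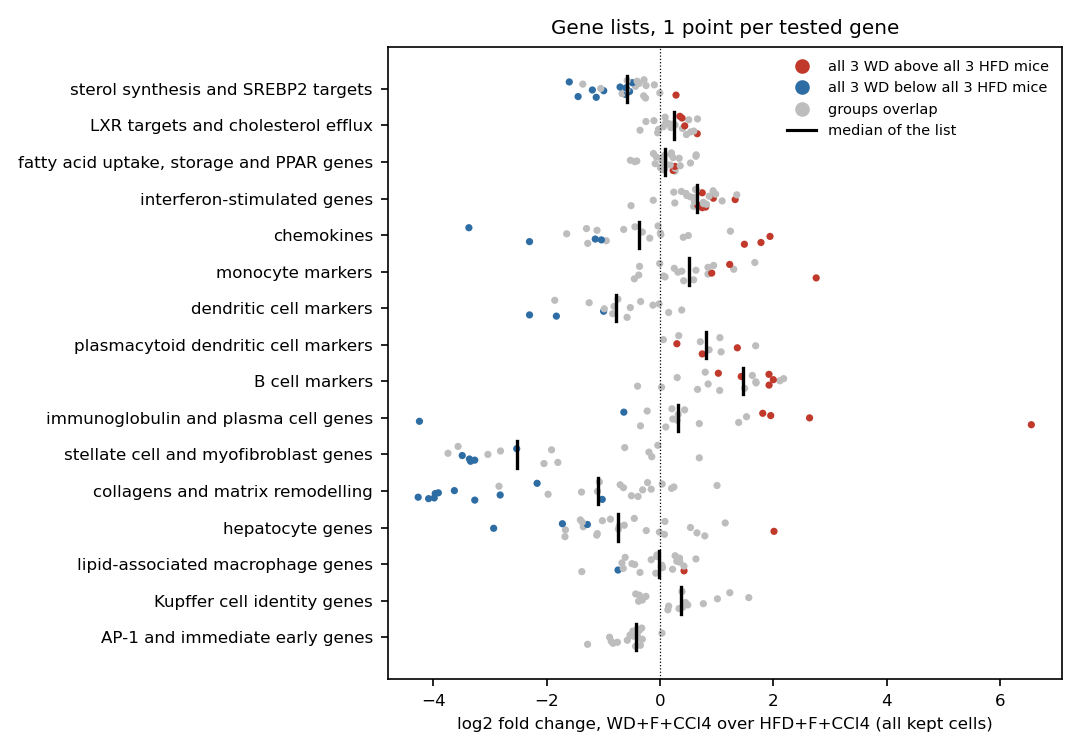
Log2 fold change of WD+F+CCl4 over HFD+F+CCl4 over all kept cells for the tested genes of 16 lists, 1 point per gene; red points have all 3 WD+F+CCl4 mice above all 3 HFD+F+CCl4 mice, blue points all 3 below, grey points overlap, and black bars are list medians. The sterol genes lie left of 0 except for Ebp, the interferon-stimulated genes lie mostly right of it with a median of 0.66, and the stellate genes have the lowest median, -2.53.

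Interferon-stimulated genes mostly had higher fitted levels under the western diet. Of 28 genes, 26 had a log2 fold change above 0 (9406 of all 19787 genes did), with a median of 0.66. Separated with WD+F+CCl4 higher were 6 (21.4%, against 4.4% of all genes): Irf7, Ly6a, Bst2, Ifi204, Rtp4 and Cmpk2. None was separated lower over all kept cells. The list's sum was 4138, 2827 and 2455 CPM in WD+F+CCl4, 1842, 2042 and 1840 CPM in HFD+F+CCl4 and 1979 and 2223 CPM in the controls, so the HFD+F+CCl4 mice lay within or below the range of the controls. WD+F+CCl4 replicate 1 was the highest, and without it the median was 0.38, with Ifi204 at 0.41, Rtp4 at 0.37, Cmpk2 at 0.37, Oas3 at 0.81 and Ifit3 at 0.45; without both endothelial-rich libraries it was 0.95. Irf7, the regulator that amplifies type I interferon (chr7:141262706-141266481, minus strand), was at 449.8, 277.3 and 162.2 CPM against 130, 130.1 and 94.1 CPM (1.33 ± 0.40, SE). Bst2 (tetherin, which holds budding virus at the membrane) was at 490, 367.7 and 394.4 CPM against 210.8, 295.8 and 239 CPM (0.75 ± 0.19). Ly6a, a GPI-anchored antigen also called Sca-1 (chr15:74994877-74998031, minus strand), was at 425.7, 338.1 and 398.5 CPM against 167.8, 227.2 and 209.4 CPM (0.94 ± 0.17, DESeq2 adjusted p = 0.000234). Unlike Irf7, Ly6a stood in the controls (423 and 420 CPM) at the western diet level. Ifi204, a DNA sensor, was at 384.4, 262.2 and 224.8 CPM against 204.5, 200.7 and 144.3 CPM, and the RNA sensing and antiviral Oas3 (1.36 ± 0.43) and Ifit3 (1.10 ± 0.42) overlapped because WD+F+CCl4 replicate 3 lay inside the other group.

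The upstream stretches of Bst2 and Isg15 (the ubiquitin-like modifier) are shown, since interferon-stimulated genes carry the interferon-stimulated response element, searched here on both strands as TTTC, 2 bases of any kind and TTTC again. Matches, which overlap each other, are in capitals. Each is 150 bases of GRCm38.p6 from RefSeq, 5′ to 3′ on the gene's strand.
Bst2, chr8:71537473-71537622, minus strand: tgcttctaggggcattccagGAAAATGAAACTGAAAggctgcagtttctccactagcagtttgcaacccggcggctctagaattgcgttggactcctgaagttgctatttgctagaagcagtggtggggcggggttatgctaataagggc
Isg15, chr4:156200819-156200968, minus strand: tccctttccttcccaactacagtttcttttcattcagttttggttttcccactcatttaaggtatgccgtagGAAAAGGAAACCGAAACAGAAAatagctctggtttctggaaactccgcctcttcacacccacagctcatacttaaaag
Of the 18 listed genes with a promoter in the table, 9 (50%) held this spelling in the 250 bases before their start, against 3.46% of all promoters.

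In the myeloid class 9 of the 28 interferon-stimulated genes were separated higher (median 0.70; 6.52% of all genes were). Isg15, which overlapped over all cells, was separated there at 88.1, 69.2 and 49.9 CPM against 38.9, 43.0 and 45.2 CPM (0.70 ± 0.21, SE), and DESeq2 called Irf7 (adjusted p = 0.0207), Ly6a (0.00510) and Oas3 (0.0495). In T and NK-like cells 7 were separated higher and 1, Iigp1, lower (median 0.44; 4.7% and 5.59% of all genes). In granulocyte-like cells 5 of 27 were separated higher (median 0.58; 5.63% of all genes), with Ifit3 called by DESeq2 (adjusted p = 0.0427). In B-like cells 2 of 27 were (7.41%, median 0.51), about the same share as the 7.33% of all genes. Without WD+F+CCl4 replicate 1 these medians were 0.40 in the myeloid class, 0.29 in T and NK-like, 0.26 in granulocyte-like and 0.22 in B-like cells, and without the cells of highest doublet score the median in T and NK-like cells was 0.20. Markers of plasmacytoid dendritic cells, the main source of type I interferon in blood, had a summed level of 1290, 1080 and 1204 CPM in WD+F+CCl4 and 700, 905 and 810 CPM in HFD+F+CCl4. Of the 10 markers 3 (30%, against 4.4% of all genes) were separated higher over all kept cells. They were Bst2, which both lists hold, Lair1 (0.30) and Cox6a2 (1.37, and 0.89 without HFD+F+CCl4 replicate 1). The defining Siglech overlapped (115.6, 65.4 and 92.7 against 4.22, 71.1 and 56.0 CPM), and so did the share of plasmacytoid dendritic cell-like cells, 1.95 to 3.48% against 0.188 to 2.92%. The part of these cells in the interferon values over all cells was not tested. Their markers also summed higher inside the myeloid class, at 935.5, 921.7 and 839.5 CPM against 673.8, 747.8 and 674.8 CPM. Most members did not follow that sum: 7 of the 10 had a log2 fold change below 0 there (median -0.13). Only Bst2 was separated higher in that class, and 0 were separated lower.

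Of 20 monocyte markers 3 were separated with WD+F+CCl4 higher over all kept cells (among them Chil3 and Fcgr1, median 0.51), and their summed level overlapped, at 20632, 17482 and 12265 CPM against 9321, 11204 and 15680 CPM. The 3 are 15% of the list, against 4.4% of all genes. Chil3, a chitinase-like protein of inflammatory monocytes (Ym1; reads of the near-identical Chil4 may be split with it), was at 2644, 1523 and 577.1 CPM in WD+F+CCl4 against 131.9, 287.2 and 282.1 CPM in HFD+F+CCl4 and 118 and 128 CPM in the controls (2.76 ± 0.56, SE, DESeq2 adjusted p = 0.000233). Most of its UMIs came from the myeloid class, 80.4% in WD+F+CCl4 and 74.8% in HFD+F+CCl4. It was also separated in each other class, at 554.6, 591.2 and 177.5 against 35.7, 43.6 and 43.0 CPM in T and NK-like cells and at 729.9, 315.2 and 179.3 against 42.6, 70.4 and 47.1 CPM in B-like cells, types not known to make it; the part of free RNA and doublets in these values was not tested. Ms4a8a, a membrane protein of some macrophages (chr19:11067471-11081102, minus strand), was at 31.9, 25.6 and 22.6 CPM against 8.71, 9.98 and 12.3 CPM (1.37 ± 0.21, unadjusted p = 0.0002 with edgeR, DESeq2 adjusted p = 0.000105). In the myeloid class it was at 40.7, 30.2 and 32.5 CPM against 11.7, 12.7 and 14.7 CPM (DESeq2 adjusted p = 4.84e-09). In the myeloid class 5 of the 20 markers were separated higher, as were 6.52% of all genes. They included Itgam and F13a1 (a coagulation factor subunit), the latter at 309.5, 202.4 and 146.6 CPM against 63.0, 143.5 and 126.8 CPM. Chil3 and F13a1 were among the leading genes of a cluster of this class whose shares did not overlap. It held 10.0 to 20.3% of WD+F+CCl4 and 3.20 to 6.76% of HFD+F+CCl4 cells. The part of this make-up in the monocyte values of the class was not tested. Ly6c2, which defines classical monocytes, overlapped over all cells (834, 468 and 253 against 85.5, 204 and 341 CPM).

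Of 22 chemokines, 3 were separated with WD+F+CCl4 higher and 4 with it lower (median -0.37, and -1.03 without WD+F+CCl4 replicate 3), and the list's summed level overlapped. Those are 13.6% and 18.2% of the list, against 4.4% and 4.49% of all genes. The higher 3 are ligands of CCR2, the receptor that draws monocytes out of the marrow. Ccl2 was at 114.8, 60.7 and 62.9 CPM against 20.6, 32.1 and 16.6 CPM, with 1.63 and 2.38 CPM in the controls (1.78 ± 0.34, SE, DESeq2 adjusted p = 0.00202). Ccl7 was at 33.6, 14.5 and 17.9 CPM against 6.68, 8.12 and 2.36 CPM (1.94 ± 0.57), and Ccl12 at 11.51, 14.3 and 23.7 CPM against 6.43, 5.69 and 5.50 CPM (1.49 ± 0.33, DESeq2 adjusted p = 0.00628). All 3 were called by DESeq2 in the myeloid class, with log2 fold changes of 1.97, 2.12 and 1.54. The lower 4 were the macrophage inflammatory proteins Ccl3 and Ccl4, the neutrophil chemokine Cxcl3, and Ccl22, which dendritic cells make to attract regulatory T cells. Ccl4 was at 122, 89.2 and 183.6 CPM against 287.3, 219.8 and 363.2 CPM (-1.14 ± 0.30), and Ccl3 at 61.5, 23.4 and 71.2 CPM against 110.2, 84.0 and 124.8 CPM (-1.03 ± 0.38, and -0.68 without WD+F+CCl4 replicate 2). Ccl3 and Ccl4 overlapped in the myeloid class. Ccl22 was at 2.47, 8.89 and 1.65 CPM against 11.2, 13.8 and 38.8 CPM (-2.30 ± 0.77, and -1.53 without HFD+F+CCl4 replicate 3) and was also lower in the myeloid class (DESeq2 adjusted p = 0.0207). Cxcl2 and the interferon-induced Cxcl10 overlapped.

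**Figure D4:**
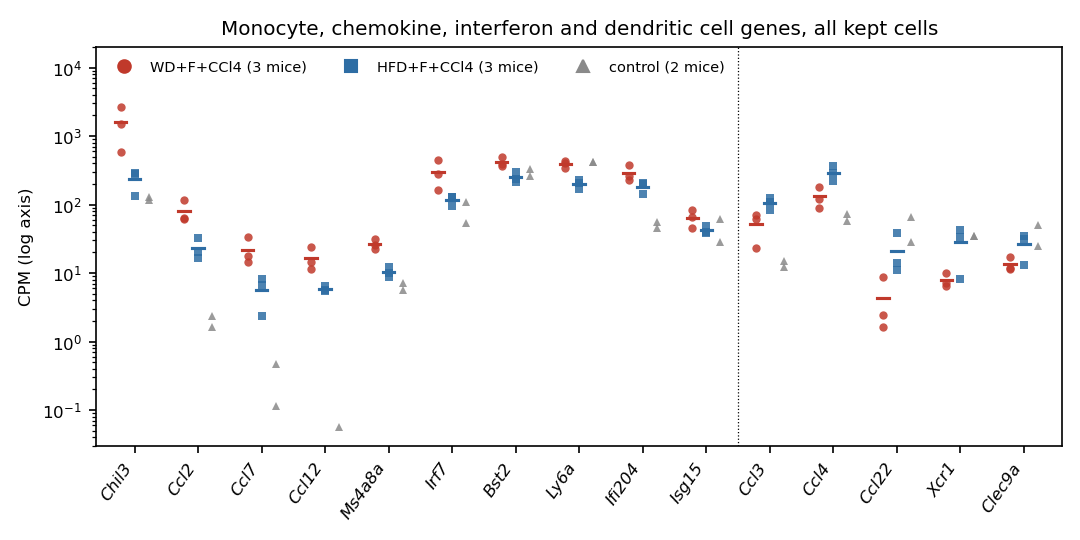
Level (CPM, log axis) of myeloid, chemokine, interferon-stimulated and dendritic cell genes in each mouse over all kept cells; circles are WD+F+CCl4, squares HFD+F+CCl4, triangles controls and bars group means. Chil3, Ccl2, Ccl7, Ccl12 and Ms4a8a have every circle above every square, Ccl3, Ccl4 and Ccl22 every circle below, and Isg15, Xcr1 and Clec9a overlap; 1 control value of 0 for Ccl12 cannot be drawn on the log axis.

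Of 16 dendritic cell markers 8 were separated lower in the myeloid class of the western diet mice (median -1.06, 7 called by DESeq2) and 3 over all kept cells (Cacnb3, Ccl22 and Cd83, median -0.77). Of all genes, 6.52% were separated lower in the class, where DESeq2 called 0.89%, and 4.49% over all kept cells. The markers' summed level overlapped in both sets of cells, at 566.3, 682.2 and 576.5 CPM against 656.9, 907.6 and 929.4 CPM in the myeloid class. Clec9a, the receptor for dead cells of cross-presenting dendritic cells, was at 6.54, 7.68 and 11.46 CPM in the myeloid class of WD+F+CCl4 against 13.4, 32.0 and 30.2 CPM (-1.56 ± 0.37, SE, DESeq2 adjusted p = 0.0117). Xcr1, their chemokine receptor (chr9:123852315-123862029, minus strand), was at 7.01, 8.32 and 8.33 CPM against 10.3, 32.1 and 41.6 CPM (-1.83 ± 0.46, DESeq2 adjusted p = 0.0122). Ccr7, the receptor of dendritic cells migrating to lymph nodes, was at 4.35, 4.03 and 3.82 CPM against 11.3, 8.997 and 34.5 CPM (-2.17 ± 0.51, DESeq2 adjusted p = 0.00448), with a log2 fold change of -1.32 without HFD+F+CCl4 replicate 3. Over all cells Ccr7, which naive T and B cells also express, overlapped. Of 12 genes of MHC class II presentation, 6 were separated lower in the myeloid class (median -0.73), with H2-Aa at 1871, 3626 and 2816 CPM against 4104, 4481 and 5875 CPM (-0.80 ± 0.30), and their summed level overlapped there. In granulocyte-like cells 4 of 11 were separated lower and 1, H2-DMb2, higher (4.33% and 5.63% of all genes were). In B-like cells 0 were separated and 10 of 12 were above 0, and over all cells the list held 1 separated gene, the protease gene Ctss, in the higher direction. A cluster of the class led by Ccl22, Ccr7 and Fscn1 held 0.167, 0.335 and 0.230% of all kept cells in WD+F+CCl4. In HFD+F+CCl4 it held 0.617, 0.514 and 1.65%. The shares of a cluster led by Cd209a and H2-Eb1 overlapped, at 8.58, 21.0 and 7.26% against 5.34, 13.2 and 21.9%. The parts of fewer dendritic cells and of lower levels per cell in the values of the class were not tested.

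B-like cells made up a larger share of the captured cells in all 3 western diet mice. They were 12.7, 4.94 and 3.94% of the cells in WD+F+CCl4 and 1.21, 3.73 and 0.310% in HFD+F+CCl4, means of 7.18 ± 4.78% and 1.75 ± 1.78% (SD, n = 3 each). The shares did not overlap, but 3.94 and 3.73% lay close to each other, and no test is given since 3 mice against 3 cannot go below p = 0.1 in an exact two-sided permutation test. Of 18 B cell markers, 5 were separated higher (Cd79a, Fcmr, Ly6d, Pax5 and Spib), 27.8% against 4.4% of all genes. The median was 1.47 (0.90 without WD+F+CCl4 replicate 1), and 17 of the 18 were above 0. The markers' summed level overlapped, at 6170, 11025 and 6925 CPM against 7709, 10464 and 11561 CPM. The list also holds Cd74, which is counted among the MHC class II genes too. Inside the myeloid class the tested markers summed to 5284, 11560 and 8336 CPM against 9711, 11520 and 13460 CPM. The part of Cd74 in these sums was not tested. Cd79a, the signalling chain of the B cell receptor, was at 114.5, 39.9 and 34.7 CPM against 12.4, 31.9 and 5.46 CPM (1.93 ± 0.72, SE, and 1.17 without WD+F+CCl4 replicate 1), below the controls at 478 and 259 CPM. Within B-like cells it overlapped, at 1463, 1337 and 1601 against 1242, 1202 and 1569 CPM. Pax5, the regulator of B cell identity, was at 18.0, 7.66 and 6.31 CPM against 1.80, 6.22 and 0.383 CPM (1.93, and 3.28 without HFD+F+CCl4 replicate 2).

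Over all kept cells, antibody genes did not all go one way. Of 17 immunoglobulin and plasma cell genes, 4 were separated higher in WD+F+CCl4 (Ighg1, Iglc1, Iglc3 and Mzb1) and 2 lower (Ighg3 and Prdm1). Those are 23.5% and 11.8% of the list, against 4.4% and 4.49% of all genes. Within B-like cells 14 of the 17 had a log2 fold change below 0 (median -1.36). There 8 (47.1%) were separated lower and 0 higher, against 5.87% and 7.33% of all genes. The 8 were Derl3, Ighm, Igkc, Iglc2, Prdm1, Sdc1, Tnfrsf17 and Xbp1. Derl3, Sdc1 and Tnfrsf17 were among the plasma cell markers used in naming classes. Ighg1, the IgG1 constant region (chr12:113325240-113330523, minus strand), was at 69.2, 27.4 and 1.29 CPM against 0.258, 0.474 and 0.302 CPM (6.55 ± 1.59, SE, DESeq2 adjusted p = 0.00189). Ighg3, the IgG3 constant region (chr12:113356224-113361232, minus strand), went the other way, at 0.920, 0.330 and 0.519 CPM against 12.96, 2.11 and 18.7 CPM (-4.24 ± 0.90, DESeq2 adjusted p = 0.000112). The kappa constant region Igkc overlapped over all cells (0.23 ± 0.58), but within B-like cells it was at 29820, 26860 and 42370 CPM against 60390, 75710 and 176900 CPM (-1.66, DESeq2 adjusted p = 0.00512). In that class HFD+F+CCl4 replicate 3 had only 33 cells, without which the value was -1.04. There 7 of 10 tested T cell markers were separated with WD+F+CCl4 higher. The parts of T cell RNA and of plasma cells in the values of the class were not tested. Most Ighg1 UMIs of the WD+F+CCl4 mice (79.3%) came from an unnamed cluster led by cycling and progenitor genes (Top2a, Elane, Mpo), which held 1.63 to 3.39% of WD+F+CCl4 and 2.23 to 4.43% of HFD+F+CCl4 cells. Immunoglobulin genes share sequence, so the split of UMIs between constant regions is uncertain.

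Of 17 stellate cell and myofibroblast genes 5 were separated with WD+F+CCl4 lower (median -2.53), and of the 26 genes for collagens and matrix remodelling 10 were (median -1.08). Those are 29.4% and 38.5% of the lists, against 4.49% of all genes. Both summed levels overlapped between the diets, the stellate genes at 193, 237 and 310 CPM against 856, 283 and 183 CPM and the collagen genes at 730, 802 and 1425 CPM against 2486, 900 and 1007 CPM. Col3a1, a fibrillar collagen of scar, was at 1.15, 7.43 and 8.83 CPM in WD+F+CCl4 and 285, 31.3 and 17.9 CPM in HFD+F+CCl4 (-4.26 ± 1.33, SE), and Col1a1, the main one, at 0.503, 4.32 and 8.67 CPM against 199, 19.3 and 10.0 CPM (-4.08 ± 1.39). Stellate-like cells supplied 82.3% of the Col3a1 UMIs in WD+F+CCl4 and 93.0% in HFD+F+CCl4. Those cells were few: 3, 4 and 15 in the WD+F+CCl4 mice and 159, 39 and 12 in the HFD+F+CCl4 mice, 0.025 to 0.128% and 0.113 to 1.42% of cells, which overlapped. One library, HFD+F+CCl4 replicate 1, held most of them; without it the collagen median was -0.35 and the stellate median -1.20, with Col3a1 at -2.08, Col1a1 at -1.70, Dcn at -1.93 and Cxcl12 at -1.74. Without WD+F+CCl4 replicate 3 the collagen median was -3.15, and without both endothelial-rich libraries they were -1.75 and -1.76. Dcn, a collagen-binding proteoglycan, was at 3.42, 5.68 and 11.8 CPM against 148, 37.1 and 16.2 CPM (-3.27 ± 0.90, DESeq2 adjusted p = 0.0142). Cxcl12, a stromal chemokine that holds lymphocytes and progenitors, was at 2.24, 1.23 and 4.98 CPM against 79.5, 12.98 and 5.96 CPM (-3.54 ± 1.05, DESeq2 adjusted p = 0.0219). Timp1, an inhibitor of matrix proteases, was at 0.746, 1.84 and 2.66 CPM against 6.96, 4.58 and 12.04 CPM (-2.17 ± 0.63). Its log2 fold change closest to 0 under any alternative was -0.32. Stellate-like cells supplied 4.14% of its UMIs in WD+F+CCl4 and 72.9% in HFD+F+CCl4. Of its 1208 UMIs in HFD+F+CCl4, 479 came from the 12 stellate-like cells of replicate 3. These sums count captured cells and not the collagen in the tissue.

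**Figure D5:**
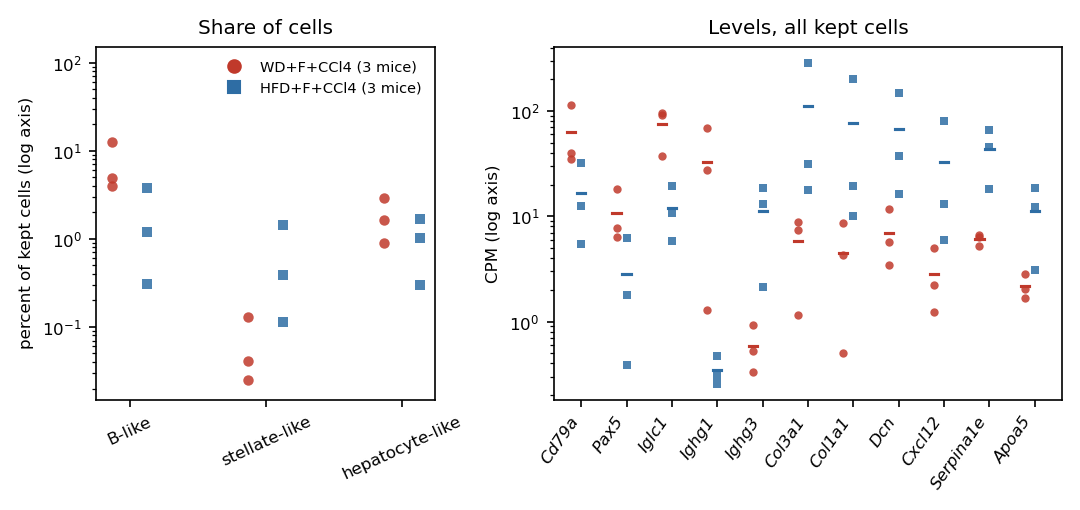
Left, share of kept cells (percent, log axis) that were B-like, stellate-like and hepatocyte-like in each NASH mouse; right, CPM (log axis) of B cell, immunoglobulin, stellate and hepatocyte genes over all kept cells; circles are WD+F+CCl4, squares HFD+F+CCl4, and bars in the right panel group means. The B-like shares of 3.94 to 12.7% and 0.310 to 3.73% do not overlap, the stellate-like and hepatocyte-like shares do, and Ighg1 and Ighg3 lie on opposite sides.

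Of 25 hepatocyte genes 3 were separated lower over all kept cells (Cyp7a1, G6pc and Hpx) and 1 higher (Bhmt), with a median of -0.73 (-1.30 without WD+F+CCl4 replicate 3, and -0.46 if HFD+F+CCl4 replicate 2 was left out), and their summed level overlapped. Those are 12% and 4% of the list, against 4.49% and 4.4% of all genes. Serpina1e, a liver antitrypsin whose paralogs are near-identical (chr12:103946931-103958975, minus strand), was at 6.34, 5.26 and 6.66 CPM against 66.4, 45.4 and 18.2 CPM and at 128 and 186 CPM in the controls (-2.83 ± 0.44, SE, DESeq2 adjusted p = 1.58e-06). Other liver genes went with it, Apoa5, which acts on triglyceride-rich lipoproteins, at 2.05, 1.67 and 2.83 CPM against 18.5, 12.2 and 3.08 CPM, and the heme scavenger Hpx at 9.41, 8.02 and 24.3 CPM against 51.1, 51.6 and 34.9 CPM. Bhmt, of methionine metabolism, was at 44.8, 11.1 and 9.49 CPM against 6.22, 7.29 and 2.66 CPM (2.01, and 0.93 without WD+F+CCl4 replicate 1). Albumin overlapped (45.8, 88.3 and 288 against 516, 678.4 and 152.9 CPM), and the hepatocyte-like share did too, at 2.91, 1.64 and 0.896% against 1.02, 1.70 and 0.300%. Medians of the list within immune classes were -1.92 in the myeloid, -2.01 in T and NK-like, -1.53 in B-like and -2.31 in granulocyte-like cells. In the myeloid class Alb was at 11.47, 14.6 and 56.1 CPM against 286, 328 and 51.3 CPM. Immune cells are not known to make these proteins; the part of hepatocyte RNA in the sterol values was not tested.

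Among the other lists, all 21 nuclear-encoded respiratory chain genes had a log2 fold change above 0, but with a median of only 0.20 and 2 separated (Sdhc and Uqcrc1). For the counts in this and the next paragraph, 4.4% of all genes were separated higher and 4.49% lower. Of 18 Nrf2 antioxidant response genes 4 were separated lower, Gclc and Gclm of glutathione synthesis, Gstm1 and Nqo1 (median -0.26). Among 28 fatty acid uptake, storage and PPAR genes 2 (7.14%) were separated higher, Acadl and Cpt1a of fatty acid oxidation (median 0.10). The lipid-associated macrophage genes had 1 in each direction among 24, Capg higher and Cd63 lower (median -0.01), with Trem2 at 280, 211 and 331 CPM against 350, 386 and 119 CPM, and Kupffer cell identity genes had 0 of 16 (median 0.36, but -2.57 without WD+F+CCl4 replicate 3). Of 19 AP-1 and immediate early genes tested 0 were separated; the median was -0.43, and 0.17 without HFD+F+CCl4 replicate 1. One list was drawn from the study's own account of these same samples, so it is not independent of them. Of its 15 genes 0 were separated, with a median of 0.07; osteopontin (Spp1) was at 1093, 700 and 997 CPM against 1143, 679 and 371 CPM and Jun at 314.5, 252.3 and 455.7 CPM against 986.9, 201.3 and 224.2 CPM.

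The remaining lists had at most 3 separated genes each. Of the lysosomal genes (28, median 0.10) 2 genes, Ctss among them, were separated higher and Cd63 lower, of glycolysis enzymes (17, median 0.12) Hk1 higher, of T cell exhaustion genes (12, median -0.52) Nr4a2 lower, of TGF-beta and profibrotic signals (21, median -0.43) Skil lower, and of 4 sex-linked genes Ddx3y lower. None was separated among neutrophil markers (median 0.89), T cell markers (-0.30), NK and cytotoxic genes (-0.15), endothelial (0.05) and cholangiocyte markers (-0.28), inflammatory cytokines (-0.49), complement and acute-phase genes (0.28), heat shock chaperones (-0.05), cell cycle genes (-0.18), platelet, basophil and mast cell genes (0.44), mitochondrially encoded genes (0.09) and hemoglobin genes, whose median of -1.63 had all 10 tested members below 0. The median of each list in this and the preceding paragraph moved by more than 1.5 times when 1 mouse was left out.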

How the data were processed

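Livers of 8 mice were dissociated, red cells and dead cells removed, and single cells captured by 10x 3' V3 chemistry. Per the study's methods and the submitters' processing notes, the authors demultiplexed with bcl2fastq 2.20 and counted with Cell Ranger against GRCm38; the deposited matrix holds raw UMI counts per gene and barcode, with a barcode suffix for the mouse. Barcodes were kept if they held over 500 genes and less than 25% of their UMIs were mitochondrial, and counts were summed per mouse over 55450 genes (108 symbols are duplicated).

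The summed counts of all 8 mice were fitted with edgeR 4.0.16 (R 4.3.3; TMM, filterByExpr with a minimum count of 10, quasi-likelihood test, Benjamini-Hochberg threshold 0.05); class sums were fitted over the 6 NASH mice. DESeq2 1.42.0, RLE factors, library size alone, no filter, the replicate number as a block, other cell limits, doublet removal, cells thinned to 1000 UMIs and leaving out each mouse were alternatives. Cells were clustered with scanpy 1.11.5 (2000 variable genes, 30 components, 20 neighbours, Leiden resolution 0.4, 19 clusters). A class name needed at least 3 of its markers, and at least a fraction of 0.5 of them, each detected in a fraction of 0.1 of the cluster's cells. A cluster stayed unnamed if another class had more markers among its leading genes, or if it was shallow and led by no marker of its class. This naming rule was set after the clusters were seen. A doublet caller (Scrublet) marked at most 0.0268% of cells in 4 of 6 NASH libraries and so had not worked there; as an alternative the 5754 NASH cells of highest score were removed. Replicate numbers were not treated as pairs in the main fits.

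The 37 gene lists and the members were chosen with earlier results of these data known. With no calls, the named genes were the 10 largest fitted differences in each direction among separated genes with an average log2 CPM over 3 (the unannotated Gm31243 and the overlapping families among them are not all described; a few members are not reported here), and from each list the key members and the largest in each direction. Msmo1, Cyp51, Fdft1, Lss, Hsd17b7, Sc5d, Lpcat3, Smpdl3a, Srebf1, Ly6a, Ifi204, Rtp4, Cmpk2, Ccl12, Ms4a8a, Ighg3, Cox6a2 and Lair1 were named after their values were seen, as were members listed only as separated. Gene positions are from GENCODE vM21 (GRCm38); UMI counts are not corrected for free RNA.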

Additional observations from a re-analysis of the deposited data

How the results depend on the processing

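Over all kept cells the count of genes called by edgeR was 0 under each of its alternatives and without each mouse (range 0 to 0), while 361 (without WD+F+CCl4 replicate 1) to 1647 genes (without WD+F+CCl4 replicate 3) had an unadjusted p under 0.05; DESeq2 called 47. With no filter on low counts edgeR called 2 genes in the myeloid class, 80 in T and NK-like, 225 in B-like and 257 in granulocyte-like cells, and DESeq2 called 139, 19, 13 and 14; which of these rest on genes with few UMIs was not tested. Leaving out 1 mouse gave 0 to 0 calls in the myeloid class, 0 to 2 in T and NK-like cells (2 without WD+F+CCl4 replicate 3), 0 to 22 in B-like cells (22 without WD+F+CCl4 replicate 3, 4 without HFD+F+CCl4 replicate 3 and 1 without HFD+F+CCl4 replicate 1) and 0 to 6 in granulocyte-like cells (6 without HFD+F+CCl4 replicate 3). In B-like cells, removing the highest doublet scores gave 1 call and thinning cells to 1000 UMIs gave 5.

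The sterol median over all kept cells ran from -0.65 (without HFD+F+CCl4 replicate 2) to -0.42 (without HFD+F+CCl4 replicate 3) and was -0.52 after thinning; in T and NK-like cells it was -0.13 after thinning, and over immune cells alone, a choice made after seeing the data, it was -0.54. Differences that changed sign had all overlapped between the groups, and the cause was not tested. Trem2 turned to 0.0034 with no filter, 0.069 with the replicate block and 0.01 without both endothelial-rich libraries, and Jun to 0.46 without both. Leaving out 1 mouse gave the ranges -0.42 to 0.22 for Trem2, -0.83 to 0.68 for Jun and -0.078 to 0.67 for Mylip over all kept cells. Cd79a in B-like cells was -0.30 with more than 1000 genes per cell. With replicate number added as a block, edgeR called 0 genes in each of the 5 fits, with 408 at an unadjusted p under 0.05 over all kept cells. Same-numbered mice did not deviate together (correlations of -0.52, -0.008 and -0.61). The highest correlation, 0.632, was between the endothelial-rich WD+F+CCl4 replicate 3 and HFD+F+CCl4 replicate 1. Such values cannot show whether same-numbered mice were handled together. Endothelial-like cells were not fitted, since WD+F+CCl4 replicate 1 had 9 of them. Over all kept cells, counting depth limits what can be said of genes under about 1 CPM. In the smaller classes this limit lies higher. In B-like cells of HFD+F+CCl4 replicate 3, 6 Chil3 UMIs made 42.0 CPM before TMM factors. In granulocyte-like cells of WD+F+CCl4 replicate 3, 2 Hsd17b7 UMIs made 1.63 CPM.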
